A study of Mus musculus with 2 samples.

Results

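The genes described here encode the hepatocyte's machinery for foreign compounds: xenobiotic cytochromes P450, conjugating (phase II) enzymes and the nuclear or cytosolic receptors that induce them. They were taken as the rows of the expression matrix whose symbol starts with Cyp1a, Cyp2, Cyp3a, Cyp4a, Ugt1a, Ugt2, Ugt3a, Sult, Gsta, Gstm, Gstp or Gstt, plus Nr1i2, Nr1i3 and Ahr, with at least 20 unique molecular identifiers (UMIs) in all. Of 32285 rows, 139 matched by symbol and 114 passed the minimum, 111 enzymes and 3 receptors. The other 25 fell short, among them 2 with no UMI. Just inside the minimum lay Cyp4a31 with 20 UMIs and Cyp3a41a with 21, and just outside it Cyp2d11 with 19 and Sult2a4 with 18. The prefix Cyp2 also takes in 6 members of families 20 to 27, such as Cyp27a1, a sterol hydroxylase, and Cyp26b1, which degrades retinoic acid.

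Nuclei came from frozen liver of mice with hepatocellular carcinoma (HCC), dissected under the microscope where tumour had persisted, and their RNA was counted with a droplet assay of transcript 3′ ends. The labels give 2 samples of 1 group, named MRD-HCC. Strain, age, sex, the way tumours were induced and any treatment are not given in the sources used here. The barcodes of the 1 matrix name no sample, so all nuclei were treated as 1 pooled sample, no difference between classes has a replicate check, and no test was made. Intervals below are exact 95% Poisson intervals that cover counting error only.

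Cytochromes P450 oxidise lipophilic compounds, with electrons from cytochrome P450 reductase. UDP-glucuronosyltransferases (Ugt), sulfotransferases (Sult) and glutathione S-transferases (Gst) then couple the products to polar groups. The constitutive androstane receptor CAR (Nr1i3), the pregnane X receptor PXR (Nr1i2) and the aryl hydrocarbon receptor (Ahr) induce many of these genes. In the normal liver lobule most of this machinery is concentrated in hepatocytes around the central vein, while hepatocytes near the portal tract carry urea synthesis and gluconeogenesis.

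Nuclei were assigned to 17 classes by marker genes, none of them a member. Pericentral hepatocytes (166 nuclei) carried Slc1a2, the glutamate transporter of the cells next to the central vein. Periportal hepatocytes (908) carried Sds, serine dehydratase, and 263 deep hepatocyte nuclei carried neither. Of the pericentral nuclei 22 also had an Sds UMI, and of the periportal nuclei 85 had an Slc1a2 UMI. Near the gate's minimum of 3 UMIs, 1 pericentral and 144 periportal nuclei had 3 or 4. Of the check markers for each zone, 9 of 9 pericentral and 9 of 9 periportal ones were at least 2-fold higher in their class than in the other classes, Glul and Lgr5 among the first, Hal and Gls2 among the second. Tumour classes were gated on high Ccnd3, and the ductal class on Pkhd1 with Asz1 or Tinag. Ccnd3 does not set hepatocyte-like tumour (5766 CPM) or the Pkhd1-high class (5526) apart from ductal nuclei (6169). In the class with Zfp804a or Hmga2 it was higher, at 11599 CPM. Gpc3 averaged 686 CPM in hepatocyte-like tumour and 793 in ductal nuclei, with nucleus medians of 559 and 309. The hepatocyte-like tumour class (166 nuclei, with Il34 or Gpc3 and Apob) met 6 of 8 check markers, H19, Igf2 and Afp included. The Pkhd1-high class with Kcnj16 or Slc8a3 (959) met 6 of 6. The class with Zfp804a or Hmga2 (131) met 3 of 6, and its Pkhd1 level of 849.1 UMIs per 1000000 (CPM) lay well under the 4209.7 CPM of the Pkhd1-high class, so it is called by its genes here. Median depth was 15330 UMIs per nucleus in pericentral, 16266 in periportal and 8104 in hepatocyte-like tumour nuclei. Free RNA, measured in droplets without a called nucleus, held 0.873% of its UMIs in members. It was expected to make up 3.79% of pericentral, 3.61% of periportal and 6.68% of hepatocyte-like tumour UMIs. Expected shares, here and below, take each nucleus to carry 672.2 UMIs of free RNA, the mean of those droplets. The true amount per nucleus was not measured and may be larger.

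The members made up 1.93% of all UMIs in pericentral hepatocytes, 1.38% in hepatocytes with neither gate gene and 0.843% in periportal hepatocytes. Their share was 0.448% in hepatocyte-like tumour nuclei, 0.245% in the Pkhd1-high class, 0.181% in the Zfp804a/Hmga2 class and 0.291% in ductal nuclei. The pooled signal was uneven: 54 members had over 1000 UMIs and 25 had under 100. All 114 are protein-coding in GENCODE M21. Transcripts of 32 share over 10% of their 90-base stretches with another gene, so their counts are uncertain. Those include all 9 Ugt1a genes, which share their last exons, Cyp2c67, Cyp2c68, Cyp2a5 and Cyp4a12a. Levels are CPM over all UMIs of a class and were not scaled by gene length, so they are compared between classes and not between genes.

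The sequences shown here are promoters of Cyp2c genes, because neighbours in that locus differed in zonation: Cyp2c29, Cyp2c38, Cyp2c39 and Cyp2c37 were steeply pericentral and Cyp2c70 was not. Each run is the 250 bases before the RefSeq transcript start on build GRCm38.p6, read 5′ to 3′ on the gene's strand. They lie at chr19:39286835-39287084 (Cyp2c29, plus strand), chr19:39463076-39463325 (Cyp2c38, minus), chr19:39510572-39510821 (Cyp2c39, plus), chr19:39992174-39992423 (Cyp2c37, plus) and chr19:40187287-40187536 (Cyp2c70, minus). Capitals mark 3 motifs: CTTTGAT, bound by TCF/LEF factors and read ATCAAAG on the other strand; CAAAGTC, a core of HNF4 sites; and TATAAA, read TTTATA on the other strand.
Cyp2c29: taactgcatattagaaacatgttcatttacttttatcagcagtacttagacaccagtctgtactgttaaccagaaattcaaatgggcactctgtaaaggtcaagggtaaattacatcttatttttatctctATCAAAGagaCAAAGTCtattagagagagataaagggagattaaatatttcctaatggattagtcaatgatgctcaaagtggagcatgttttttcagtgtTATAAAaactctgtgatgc
Cyp2c38: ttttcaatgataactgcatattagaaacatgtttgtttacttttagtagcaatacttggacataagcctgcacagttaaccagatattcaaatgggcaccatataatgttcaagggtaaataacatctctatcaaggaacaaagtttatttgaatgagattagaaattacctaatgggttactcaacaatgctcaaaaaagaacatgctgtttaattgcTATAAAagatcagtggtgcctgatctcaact
Cyp2c39: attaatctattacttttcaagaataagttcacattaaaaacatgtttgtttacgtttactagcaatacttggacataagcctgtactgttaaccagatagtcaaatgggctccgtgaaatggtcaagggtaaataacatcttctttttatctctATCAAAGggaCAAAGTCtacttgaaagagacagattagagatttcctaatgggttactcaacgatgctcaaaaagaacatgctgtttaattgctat
Cyp2c37: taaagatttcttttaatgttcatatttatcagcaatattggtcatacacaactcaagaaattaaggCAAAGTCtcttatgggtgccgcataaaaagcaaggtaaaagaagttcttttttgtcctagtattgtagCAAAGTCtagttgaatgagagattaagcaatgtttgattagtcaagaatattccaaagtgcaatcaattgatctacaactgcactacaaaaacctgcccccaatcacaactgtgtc
Cyp2c70: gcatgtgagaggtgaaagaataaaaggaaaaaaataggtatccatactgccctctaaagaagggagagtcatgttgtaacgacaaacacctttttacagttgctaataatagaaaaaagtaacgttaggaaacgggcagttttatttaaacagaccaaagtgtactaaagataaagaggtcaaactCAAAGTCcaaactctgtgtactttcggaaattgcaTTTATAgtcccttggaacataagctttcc

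Cyp2c29 and Cyp2c39 carried ATCAAAG followed after 3 bases by CAAAGTC, at bases 119 to 103 and 96 to 80 before the start. Cyp2c38 had neither motif by exact letters, although it was the steepest of the set. Cyp2c37 had CAAAGTC at 2 positions, and Cyp2c70 had 1 together with TTTATA. The promoters of Cyp2c29, Cyp2c38 and Cyp2c39 were 68.1% to 71.0% identical to each other, and 46.7% to 49.3% identical to that of Cyp2c70. Their longest shared run, tcaagggtaaat, occurred in 5 of the table's 32817 promoter windows. Cyp2c37 and its near neighbour Cyp2c50 were 84.3% identical. The RefSeq start of Cyp2c29 lies 17680 bases from the start of the GENCODE gene model, inside it.

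RefSeq held promoters for 94 of the 114 members. CTTTGAT, on either strand, occurred in 3 of them (Cyp2c29, Cyp2c39 and Sult2a8), against 3.21% of all promoters. All 3 belong to the 33 matched members that were at least 2-fold higher in pericentral hepatocytes with at least 20 UMIs. The share over members, 3.19%, was close to that of all promoters. Cyp2c29 and Cyp2c39 are neighbours with 68.1% identical promoters, so no tie to zonation is read from the 3. CAAAGTC occurred in 15 of 94 members, against 3.84% of all promoters. It was in 8 of the 33 pericentral members, 5 of 37 in between (Cyp2c67, Cyp2c68 and Cyp2c70 among them) and 0 of the 4 periportal ones. Most of the 15 were Cyp2c, Cyp2a or Cyp2b genes, clustered relatives that are not independent of each other. TATAAA occurred in 24 of 94 members against 12.4% of all promoters, in 10 of the 33 pericentral members, 8 of 37 in between and 2 of the 4 periportal ones. AGGTCA, the half-site of nuclear receptors, occurred in 21 of 94 against 14.0%, and GCGTG, the core bound by the aryl hydrocarbon receptor, in 14 of 94 against 28.1%. CTTTGAT and CAAAGTC can overlap by the letters CAAAG only when read on opposite strands. The motifs were chosen with the sequences in view, and a match describes letters, not a bound site.

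Between the hepatocyte zones, 42 of 114 members were at least 2-fold higher and 5 were at least 2-fold lower in pericentral than in periportal nuclei. Over all 19683 genes with at least 20 UMIs, 4.16% were higher and 4.05% lower by the same fold. The median log2 ratio was 0.72 over the members and -0.03 over all genes. Ratios on the log2 scale were taken with 1 CPM added to both levels. Among the 66 members with at least 100 UMIs in both classes together, 26 were higher and 5 lower, against 4.01% and 4.49% of genes at that depth.

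Cyp2e1, which oxidises ethanol and paracetamol, had 2003 CPM in pericentral, 1077 in neither-gate and 98.0 in periportal nuclei, a 20.4-fold pericentral excess (19.3 to 21.6). Cyp2c29, a drug-oxidising P450 of mice, had 1841, 731 and 74.0 CPM in the same order and was 24.9-fold higher (23.4 to 26.5). Cyp2c38 had 333, 167 and 6.45 CPM, a 51.7-fold excess (42.4 to 63.7). In each of these genes the level stepped down from pericentral through neither-gate to periportal nuclei. The periportal levels of Cyp2e1 and Cyp2c29 lay under those of endothelial and stellate nuclei, which are not expected to express them, so these folds are not a measure of periportal expression. Free RNA would bring 32.9 CPM of Cyp2e1, 20.9 of Cyp2c29 and 1.13 of Cyp2c38 to periportal nuclei. With expected free RNA subtracted, the log2 ratio was 4.90 in place of 4.34 for Cyp2e1, 5.07 in place of 4.62 for Cyp2c29 and 5.73 in place of 5.49 for Cyp2c38. Cyp2c39 had 622, 433 and 37.6 CPM and was 16.6-fold higher (15.1 to 18.1). Cyp2a5, which oxidises coumarin and nicotine, had a steeper gradient between pericentral and neither-gate nuclei. It had 173 CPM in pericentral, 17.7 in neither-gate and 5.09 in periportal nuclei. The periportal level of Cyp2a5 lay under the 7.76 to 14.4 CPM of the tumour classes, and free RNA held 68.6 CPM. Cyp1a2, the caffeine-oxidising P450 and a target of the aryl hydrocarbon receptor, had 72.7, 18.8 and 8.63 CPM, an 8.42-fold excess (6.79 to 10.5). Its periportal level lay under the 12.5 to 18.6 CPM of tumour and ductal nuclei, and free RNA held 111 CPM. The Cyp1a2 fold is therefore not a measure of periportal expression either.

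Several phase II genes, and the sterol hydroxylase Cyp27a1, had the same direction. Sult2a8, a bile acid sulfotransferase of mice, had 1798 CPM in pericentral, 1424 in neither-gate and 240.2 in periportal nuclei, 7.49-fold higher at the pericentral end (7.19 to 7.80). Gsta3, an alpha-class glutathione transferase that detoxifies aflatoxin epoxide in mice, had 1057, 486 and 155 CPM and was 6.81-fold higher (6.47 to 7.18). Gstm2 had 38.7, 8.14 and 3.61 CPM and Ugt2b1 had 195, 105 and 29.5 CPM. Each was highest in pericentral and lowest in periportal nuclei. Cyp27a1, which takes part in bile acid synthesis, had 590.5, 527 and 96.9 CPM. Sult3a1 was counted at 46 UMIs in pericentral nuclei and 1 in periportal ones, but 26 of the 46 came from 1 of 5 nuclei.

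**Figure D1:**
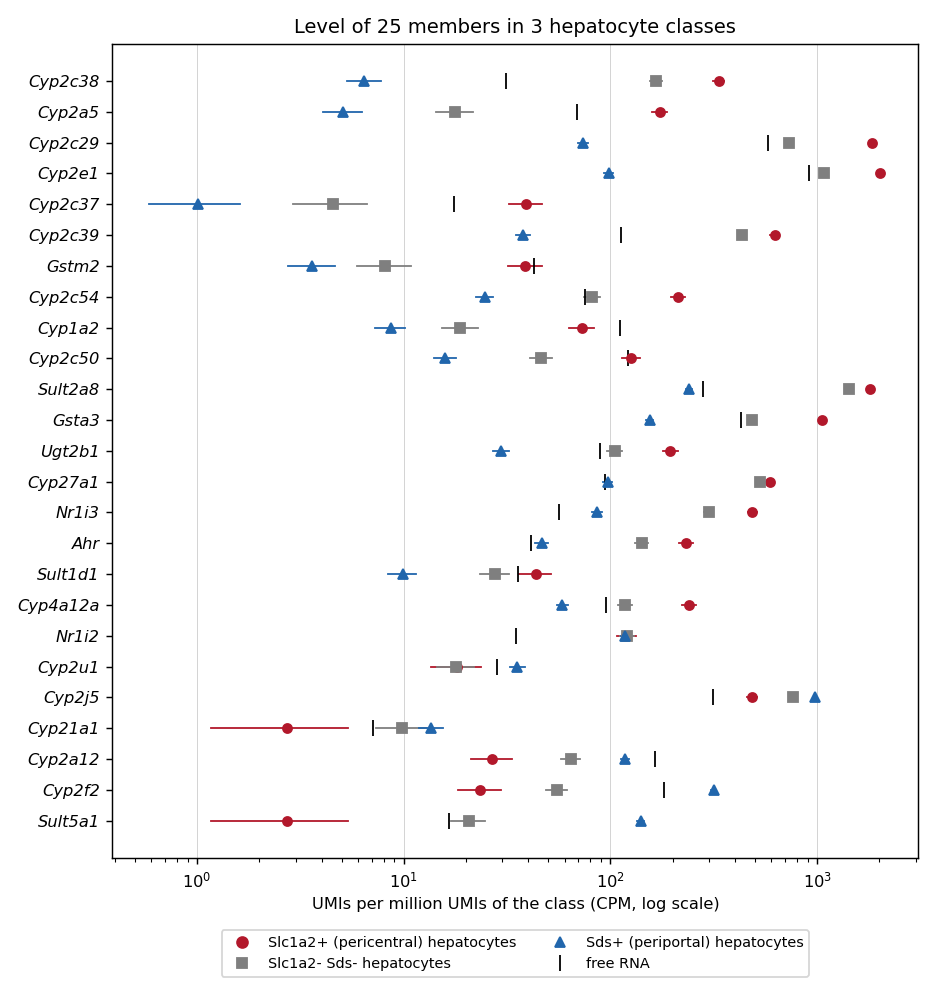
Level of 25 members in pericentral (circles), neither-gate (squares) and periportal (triangles) hepatocytes (Slc1a2+, Slc1a2- Sds- and Sds+ in the labels), in CPM on a log axis, with exact 95% Poisson intervals and a tick for the level in free RNA. Members are ordered by the pericentral over periportal ratio, from Cyp2c38 (333 against 6.45 CPM) down to Sult5a1 (2.72 against 140.0 CPM), and Nr1i2 shows overlapping levels in the 3 classes.

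The 5 members at least 2-fold lower in pericentral nuclei are close in share to the 4.05% of all genes, and are given as values. Sult5a1, a sulfotransferase whose substrate is little known, had 2.72 CPM in pericentral, 20.6 in neither-gate and 140.0 in periportal nuclei, 51.5 times lower at the pericentral end (26.1 to 119). Cyp2f2, which activates naphthalene in mouse liver and airway, had 23.4, 55.0 and 316 CPM and was 13.5 times lower (10.7 to 17.4). Cyp2a12, a steroid hydroxylase, had 26.8, 64.2 and 118 CPM. Cyp2j5, an arachidonic acid epoxygenase, had 483, 761 and 978 CPM, 2.02 times lower (1.92 to 2.14). Cyp21a1, the steroid 21-hydroxylase, had 2.72, 9.76 and 13.6 CPM, the pericentral value from 8 UMIs. For all 5 the neither-gate level lay between the zones.

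The steepness of the gradient differed among members. With at least 20 UMIs in the pericentral and periportal classes, 43 members were at least 2-fold apart, 38 of them higher and 5 lower in pericentral nuclei. In 40 of the 43 the neither-gate level lay strictly between, the exceptions being Gsta2, Sult3a1 and Gstt3. The 43 were picked because their end classes differ, which by itself makes a level in between likely. No count over all genes is given for this or for the steepness below, so both describe the members only. For 7 of the 38 the neither-gate level was at 25% or less of the pericentral level, as in Cyp2a5 (10.3%) and Cyp2c37 (11.6%). For 11 it was at 60% or more, as in Sult2a8 (79.2%), Cyp27a1 (89.3%), Cyp2c39 (69.6%) and Nr1i3 (61.4%). Cyp2e1 (53.8%) and Cyp2c29 (39.7%) lay in the middle. The neither-gate class was defined after the levels had been seen, and 202 of its 263 nuclei fell in the cluster that also held 158 of the 166 pericentral nuclei. By 2 zonation markers it was nearer to periportal nuclei. Cps1 stood at 3454 CPM, against 3323 in periportal and 410 in pericentral nuclei, and Glul at 35.4, against 17.9 and 1523. Against the neither-gate class, pericentral nuclei were at least 2-fold higher for 23 members and lower for 6, with 3.07% and 2.36% of all genes past the same folds. At 100 or more UMIs, 12 were higher, with Cyp2a5, Cyp2c37, Gstm2 and Cyp1a2 in the lead, and 3 were lower, against 1.94% and 1.86% of genes. Neither-gate nuclei were in turn at least 2-fold higher than periportal nuclei for 21 members and lower for 2, against 1.4% and 1.52% of all genes. At 100 or more UMIs these counts were 16 and 2, against 1.5% and 1.65% of genes.

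Shares of nuclei gave the same order after every nucleus was thinned to 8000 UMIs, which left 145 pericentral, 263 neither-gate and 857 periportal nuclei. Cyp2e1 was detected in 100% of pericentral, 91.3% of neither-gate and 41.8% of periportal nuclei. Cyp2c38 was detected in 84.1%, 47.5% and 3.15%, and Cyp2f2 in 21.4%, 30.4% and 86.8%. Without thinning, the Cyp2e1 shares were 100%, 95.4% and 62.6%. At 2000 UMIs per nucleus, Cyp2e1 was found in 14.2% of periportal nuclei, against 34.4% of non-sinusoidal endothelial and 41.7% of stellate nuclei. Those classes carried more expected free RNA, 14.2% and 18.4% of their UMIs against 3.61% in periportal nuclei, so the shares are not matched for it and no periportal expression is read from them. Cyp2c29 (11.8% of periportal, 23.2% of endothelial) and Cyp2c39 (3.19%, 5.76%) were also detected in a smaller share of periportal than of endothelial nuclei.

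Family by family, 14 of 40 members of the Cyp2 family were at least 2-fold higher and 3 lower in pericentral nuclei. The corresponding counts were 3 of 6 for Cyp3a, 4 of 8 for Cyp4a, 4 of 8 for Ugt2, 4 of 7 for Gstm, 2 of 4 for Gsta and 5 of 14 for Sult, where 1 more was lower. None of the 9 Ugt1a members and neither Ugt3a member passed 2-fold, which at 4.16% higher and 4.05% lower over all genes says nothing particular about these small families. Cyp3a25 had 1354 CPM in pericentral and 659 in periportal nuclei, while Cyp3a13 had 146 and 167 CPM. Of the Ugt2 genes, Ugt2b34 (4.01-fold), Ugt2b1 (6.59-fold), Ugt2b35 (2.83-fold) and Ugt2a3 (2.26-fold) were past the fold, and Ugt2b5 and Ugt2b36 were not (1.29-fold and 1.62-fold). Ugt1a6a, which conjugates small phenols, had 52.6 and 30.9 CPM in pericentral and periportal nuclei.

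Neighbours on a chromosome could differ in zonation. The 13 Cyp2c members lie on chromosome 19 between 39007019 and 44029208 (build GRCm38). Of these, 8 were at least 2-fold higher in pericentral nuclei, against 4.16% of all genes. In chromosomal order, Cyp2c55 came first, with 8 UMIs over both classes together and a log2 ratio of 1.44, and Cyp2c29, Cyp2c38 and Cyp2c39 had log2 ratios of 4.62, 5.49 and 4.01. The next genes, Cyp2c67 and Cyp2c68, had 0.69 and 0.57, and Cyp2c40 and Cyp2c69 were intermediate at 0.98 and 1.76. Cyp2c37, Cyp2c54 and Cyp2c50 were again steep, at 4.32, 3.06 and 2.92, and Cyp2c70 and Cyp2c23 at the far end had -0.30 and -0.62. Cyp2c67 and Cyp2c68 share 28.4% and 22.4% of their stretches with other genes, which leaves their counts less certain than those of Cyp2c29, Cyp2c38 and Cyp2c39.

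**Figure D2:**
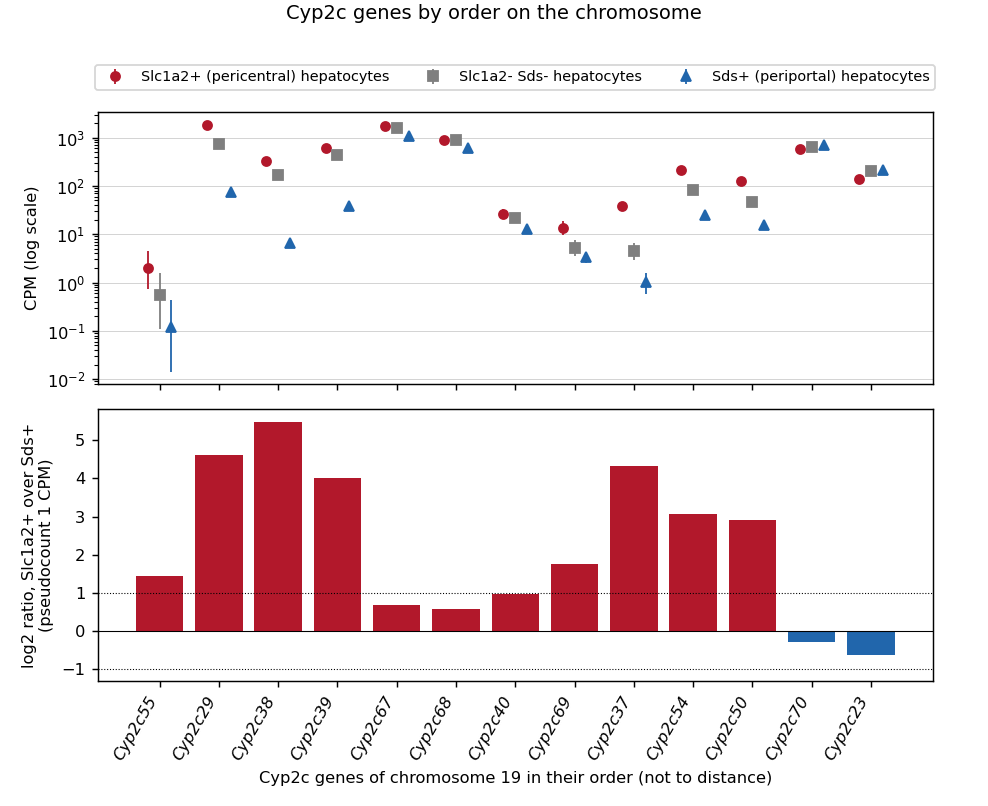
The 13 Cyp2c members in their order on chromosome 19. The upper panel gives CPM in pericentral, neither-gate and periportal hepatocytes on a log axis with exact 95% intervals, and the lower panel the log2 ratio of pericentral over periportal (dotted lines at 2-fold). The ratio is high at Cyp2c38 (5.49), Cyp2c39 (4.01) and Cyp2c37 (4.32). Between Cyp2c39 and Cyp2c37 it is lower, ranging from 0.57 (Cyp2c68) to 1.76 (Cyp2c69).

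The Cyp2a, Cyp2b and Cyp2f cluster on chromosome 7 (25802475 to 27158668, 11 members) held both directions. Cyp2a5 at 26835305 to 26843548 was 34.0-fold higher in pericentral nuclei, whereas Cyp2a12 at 27029081 to 27037375 was 4.39 times lower and Cyp2f2 at 27119909 to 27133660 was 13.5 times lower. The Cyp2a5 fold is not a measure of periportal expression, because its periportal level of 5.09 CPM lay under those of the tumour classes. Cyp2b9 in the same cluster differed less, with 117 CPM in pericentral, 55.3 in neither-gate and 88.8 in periportal nuclei. In the Sult2a cluster, also on chromosome 7, Sult2a8 was the pericentral gene described above, and Sult2a3 had 0 UMIs in pericentral and 2 in periportal nuclei. In the Cyp2d cluster on chromosome 15 only Cyp2d9 of 6 members passed 2-fold with 1 CPM added (Cyp2d12, with 8 and 22 UMIs, was 2.09-fold higher without it, 0.804 to 4.87), with 303 and 110 CPM in pericentral and periportal nuclei. Of 6 Cyp2j members on chromosome 4, Cyp2j5 was lower and none was higher. Over all genes 4.16% were higher and 4.05% lower, and the Cyp2d and Cyp2j counts are not read as a result about these clusters.

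Among the Cyp4a genes, which hydroxylate fatty acids, Cyp4a12a had 240.1 CPM in pericentral, 118 in neither-gate and 58.5 in periportal nuclei, 4.10-fold higher (3.72 to 4.52). It shares 37.8% of its stretches with another gene, so it is uncertain which copy was counted. Cyp4a10 and Cyp4a14, the classical targets of the fatty acid receptor PPAR alpha, had at most 11 UMIs in any of these classes. Of the 4 Cyp4a genes counted as past 2-fold, Cyp4a14 (5 UMIs in pericentral and 5 in periportal nuclei) and Cyp4a30b (6 and 2 UMIs) rest on few UMIs. Of the other sulfotransferases, Sult1a1, which conjugates phenols, had 237, 134 and 144 CPM, and Sult1d1 had 43.5, 27.5 and 9.87 CPM. Ugt3a1 was flat with 135, 161 and 155 CPM, and Ugt3a2 had 126, 91.7 and 63.3 CPM. Gstp3 differed little, at 353, 343 and 307 CPM, and Gstt2 had 114, 61.7 and 57.7 CPM. Of the Cyp2d genes, Cyp2d22 had 172 CPM in pericentral and 142 in periportal nuclei, and Cyp2d26 127 and 182 CPM. Cyp2r1, a vitamin D 25-hydroxylase, had 22.7 and 19.98 CPM, and the interval of its ratio (0.862 to 1.48) included 1.

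The receptors followed different patterns. Nr1i3 lies on chromosome 1 (171213970 to 171220701), Nr1i2 on chromosome 16 (38248323 to 38294824) and Ahr on chromosome 12 (35497974 to 35535038), all on GRCm38. Nr1i3 had 486 CPM in pericentral (461 to 512), 299 in neither-gate and 86.0 in periportal nuclei (81.7 to 90.6), a 5.65-fold excess (5.25 to 6.08). Ahr had 232, 141 and 46.5 CPM, 4.98-fold higher in pericentral nuclei (4.49 to 5.53). Nr1i2 was flat, at 119, 121 and 118 CPM. After thinning to 8000 UMIs, Nr1i3 was detected in 95.9% of pericentral and 46.0% of periportal nuclei, and Nr1i2 in 58.6% and 61.0%. Free RNA held 56.6 CPM of Nr1i3, 34.9 of Nr1i2 and 41.4 of Ahr, and the share expected from it in hepatocytes was at most 2.14 CPM.

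**Figure D3:**
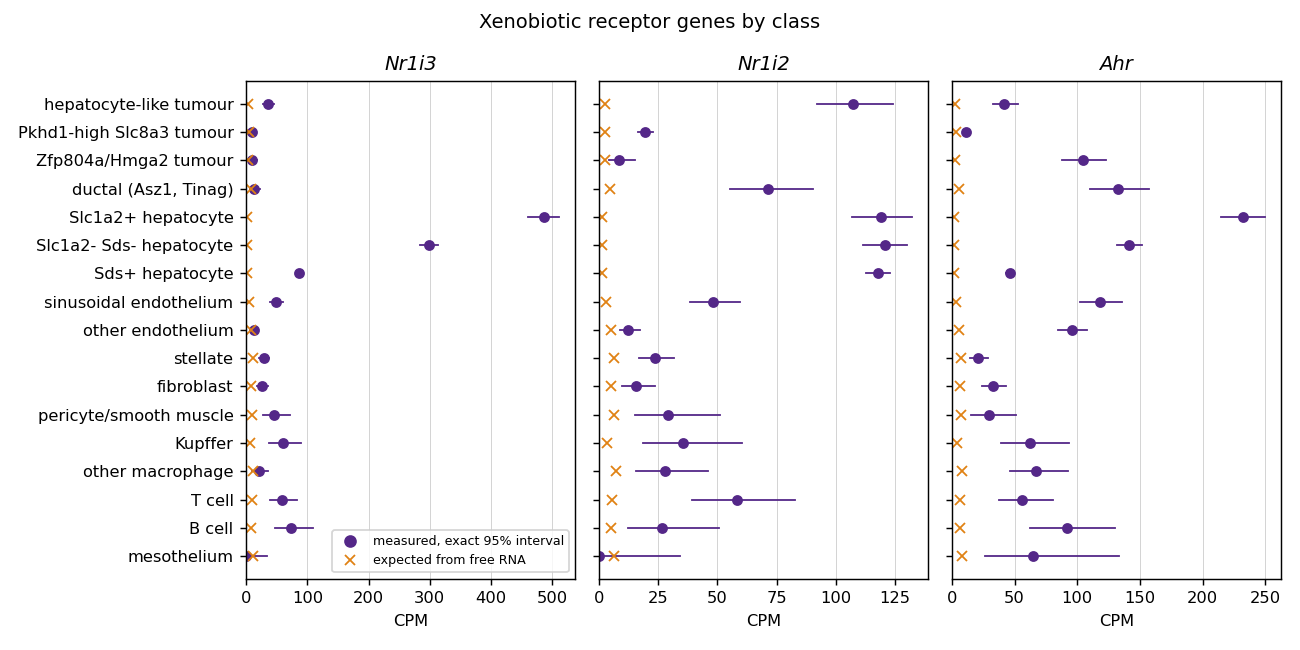
Nr1i3, Nr1i2 and Ahr in 17 classes of nuclei, in CPM with exact 95% Poisson intervals, and the level expected from free RNA (crosses). Nr1i3 is highest in pericentral hepatocytes (486 CPM), Nr1i2 is close to 119 CPM in the 3 hepatocyte classes and 107 in hepatocyte-like tumour, and Ahr is also high in ductal nuclei (132) and the Zfp804a/Hmga2 class (104).

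In tumour classes the receptors separated again. Nr1i2 had 107 CPM in hepatocyte-like tumour nuclei (92.0 to 124), a level overlapping that of hepatocytes, 19.4 in the Pkhd1-high class and 8.38 in the Zfp804a/Hmga2 class. Nr1i3 had 35.9, 10.2 and 9.90 CPM in these classes, all below the 86.0 CPM of periportal hepatocytes. Ahr had 41.9 CPM in hepatocyte-like tumour, 11.03 in the Pkhd1-high class and 104 in the Zfp804a/Hmga2 class, against 46.5 in periportal hepatocytes. Ductal nuclei, marked by Asz1 and Tinag, had 132 CPM of Ahr and sinusoidal endothelium had 118. Pericentral Ahr lay above all of these, and the ductal, neither-gate and sinusoidal levels had overlapping intervals.

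Against pericentral hepatocytes, hepatocyte-like tumour nuclei were at least 2-fold lower for 56 of 114 members and higher for 16. Of all genes, 7.73% were lower and 18.2% higher. The median log2 ratio was -0.95 over members and 0.18 over all genes. At 100 or more UMIs in both classes together, 38 of 51 members were lower and 1, Cyp2f2, was higher, against 8.98% and 11.2% of genes. Cyp2c38 had 5.98 CPM in hepatocyte-like tumour and 333 in pericentral nuclei, 55.7 times lower (30.2 to 117). Cyp2c29 had 102 and 1841 CPM, 17.99 times lower (15.4 to 21.1), Sult2a8 119 and 1798 CPM, and Nr1i3 35.9 and 486 CPM. Cyp2e1 had 209 CPM in hepatocyte-like tumour and 2003 in pericentral nuclei. The tumour levels of Cyp2e1, Cyp2c29, Cyp2c38 and Sult2a8 lay within the range of the endothelial, mesenchymal, immune and mesothelial classes, all of which carried a larger share of free RNA (8.87% to 20.4% of UMIs, against 6.68%). Free RNA would bring 60.8 CPM of Cyp2e1, 38.6 of Cyp2c29, 2.09 of Cyp2c38 and 18.7 of Sult2a8 to hepatocyte-like tumour nuclei, less than was measured. Whether the rest is expression in tumour nuclei was not tested. Nr1i3, after thinning to 2000 UMIs, was detected in 7.27% of hepatocyte-like tumour and 60.8% of pericentral nuclei, against 2.88% of non-sinusoidal endothelial nuclei.

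Against periportal hepatocytes, a class that also serves as the baseline for the next comparisons, the same tumour class was set next. Here 22 members were at least 2-fold lower and 24 higher, with 5.41% and 15% of all genes past these folds, and the median log2 ratio was -0.10 over members and 0.16 over all genes. With at least 100 UMIs in both classes, 21 of 64 members were lower and 8 higher, against 6.98% and 11% of genes. All-gene medians at that depth were 0.12 in both hepatocyte-like tumour comparisons, to 2 decimals, and 0.21 for the Pkhd1-high class, so values near 0 lie slightly below the bulk of genes. Cyp2c67 had 171 CPM in hepatocyte-like tumour and 1081 in periportal nuclei, 6.34 times lower (5.64 to 7.15). Its tumour UMIs came from 65 of 166 nuclei, and 41 of 285 from 1 nucleus. Hepatocyte genes in this class were carried unevenly: Sds averaged 255 CPM and Abcb11 175 with a median nucleus at 0, and Cps1 1371 with a median of 297, so pooled levels can rest on a minority of nuclei. Cyp2c70, a bile acid hydroxylase of mice, had 129 and 711 CPM, and Cyp2j5 had 323 and 978 CPM. The Cyp2c67 and Cyp2c70 levels lay within the 55.5 to 524 and 74.0 to 255 CPM of the non-parenchymal classes, and that of Cyp2j5 within 101 to 356 CPM. Cyp3a13, at 139 and 167 CPM, and Cyp2d26, at 196 and 182 CPM, differed by less than 1.5 times.

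Members that were higher in hepatocyte-like tumour nuclei than in periportal hepatocytes were mostly of low count, 16 of the 24 having under 100 UMIs in both classes. Sult2a3, a hydroxysteroid sulfotransferase, had 48 UMIs in tumour (28.7 CPM) and 2 UMIs in periportal nuclei (0.118 CPM). The 48 came from 17 of 166 nuclei, 18 of them from 1 nucleus, and the log2 ratio ran from 2.72 to 5.11 over the alternatives. Sult1e1, the estrogen sulfotransferase, had 22.1 and 0.769 CPM, 28.8-fold higher (14.96 to 59.0), from 37 tumour UMIs in 17 nuclei (log2 ratio 2.23 to 4.15 over the alternatives). Cyp3a57 had 10.8 CPM from 18 UMIs in 14 nuclei, and 2 UMIs in periportal nuclei (1.62 to 3.69). Ugt1a7c had 22.7 and 6.27 CPM and Ugt1a10 18.5 and 5.85 CPM, both sharing over 50% of their stretches with the other Ugt1a genes. Gstm1 had 93.3 and 31.4 CPM and Gstt1 61.0 and 23.4 CPM. Gsta3, with 309 and 155 CPM, was just short of 2-fold (1.99-fold higher). Gstm1 also reached 151 CPM in B cells and 339 in free RNA. Free RNA held 60.4 CPM of Gstt1 and 429 of Gsta3, and its part in these levels was not tested. At 100 or more UMIs, 8 of 64 members were higher, near the 11% of all genes. That count is not read as a result about the members.

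The Pkhd1-high class was lower than periportal hepatocytes by at least 2-fold for 45 members and higher for 12, with 10.9% and 17.7% of all genes past these folds. With at least 100 UMIs, 41 of 69 members were lower and 8 higher, against 15.1% and 19.4% of genes. The median log2 ratio of members was -0.54, against 0.19 over all genes. Cyp2c67 had 42.2 CPM in the Pkhd1-high class and 1081 in periportal nuclei, 25.6 times lower (23.0 to 28.6). Cyp3a25 had 42.3 and 659 CPM, Cyp2j5 55.0 and 978 CPM, and Cyp2c70 47.3 and 711 CPM. The levels of these 4 genes lay within or below the range of the non-parenchymal classes. Of the 40 Cyp2 members 23 were lower and 1, Cyp2s1, was higher. The receptors Nr1i3, Nr1i2 and Ahr were all lower, by 8.45, 6.07 and 4.22 times.

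Several glutathione transferases were higher in that class than in periportal hepatocytes. Gsta3 had 693 CPM in the Pkhd1-high class and 155 in periportal hepatocytes, 4.47-fold higher (4.26 to 4.68), and lay below the 1057 CPM of pericentral hepatocytes. Non-parenchymal classes held 129 to 225 CPM of Gsta3 and free RNA 429 CPM, and after thinning to 2000 UMIs it was detected in 67.6% of Pkhd1-high and 23.9% of periportal nuclei. Ductal nuclei had 427 CPM. Gstt1 had 96.5 CPM in the Pkhd1-high class and 23.4 in periportal nuclei, a 4.13-fold excess (3.66 to 4.67). Gstm2 had 26.8 and 3.61 CPM, and Gsta2 8.49 and 1.12 CPM. Gstm1 was 4.25-fold higher, at 134 and 31.4 CPM, but 80.2 to 151 CPM were also counted in non-parenchymal classes and 339 in free RNA, whose part in its level was not tested. By family, 2 of 4 Gsta, 3 of 7 Gstm and 2 of 3 Gstt members were higher and none was lower, against 17.7% and 10.9% of all genes. Hepatocyte-like tumour had 1, 4 and 2 higher against periportal nuclei, and ductal nuclei 2, 4 and 0. Each of those had 1 Gstt lower. Against pericentral hepatocytes, the Pkhd1-high class had 0 Gsta and 0 Gstm higher and 2 Gstm lower. There 1 Gstt was higher and 1 lower. Gstp3, a pi-class enzyme, was 5.19 times lower in the Pkhd1-high class than in periportal nuclei. Sult1c2, a phenol sulfotransferase, had 21.7 CPM in the Pkhd1-high class and 42.4 in ductal nuclei, against 4.79 in periportal hepatocytes.

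Compared directly, the Pkhd1-high class was at least 2-fold lower than hepatocyte-like tumour for 48 of 114 members and higher for 2, with 11.1% and 7.85% of all genes past these folds. At 100 or more UMIs, 25 were lower and 2 higher, against 10% and 8.02% of genes. The 2 higher members were Gsta3 (693 and 309 CPM) and Gstm2 (26.8 and 8.97 CPM). Cyp2d26 had 24.7 CPM in the Pkhd1-high class and 196 in hepatocyte-like tumour, Cyp3a25 had 42.3 and 273 CPM, and Nr1i2 had 19.4 and 107 CPM. Sult1e1 had 1.58 and 22.1 CPM, and Sult2a3 had 2 and 48 UMIs.

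The Zfp804a/Hmga2 class was lower than periportal hepatocytes for 47 members and higher for 12, with 13.3% and 19.5% of all genes past these folds. With at least 100 UMIs, 44 of 63 members were lower and 3 higher, against 18.2% and 15% of genes. The median log2 ratio of members was -0.70, against 0.08 over all genes. The 3 were Ahr, Gstm1 and Cyp2a5. Gstm1 and Cyp2a5, at 71.6 and 13.7 CPM, did not exceed the highest of the non-parenchymal classes (151 and 39.0 CPM). Gsta3 had 106 CPM in this class and 155 in periportal nuclei, below its level in the Pkhd1-high class. Cyp27a1 was at 73.1 and 96.9 CPM, and Cyp2j5 at 84.5 and 978 CPM, 11.6 times lower (9.61 to 14.1). Of the 9 Ugt1a members 5 were lower and none was higher.

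Ductal nuclei, gated on high Pkhd1 like the Pkhd1-high class but with Asz1 or Tinag, were set against periportal hepatocytes. They were at least 2-fold lower for 42 members and higher for 16, with 11.6% and 21.1% of all genes past these folds. At 100 or more UMIs 36 were lower and 6 higher, against 15.1% and 15.6% of genes. The 6 were Sult1c2, Cyp2a5, Ahr, Gstm1, Gsta3 and Cyp1a2. Sult1c2 was 8.85-fold higher (5.92 to 13.0), Ahr 2.84-fold (2.34 to 3.43) and Gsta3 2.75-fold (2.48 to 3.05). Free RNA was expected to make up 13.1% of ductal UMIs, more than in any hepatocyte or tumour class, and the ductal levels of Cyp2a5, Gstm1 and Cyp1a2 lay within the range of the non-parenchymal classes. The Pkhd1-high class against pericentral hepatocytes gave 68 members lower and 4 higher, with 11.6% and 19.2% of all genes past these folds. At 100 or more UMIs 43 were lower and 3 (Ugt1a7c, Sult1c2 and Gstt1) were higher, against 13.5% and 21.5% of genes.

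**Figure D4:**
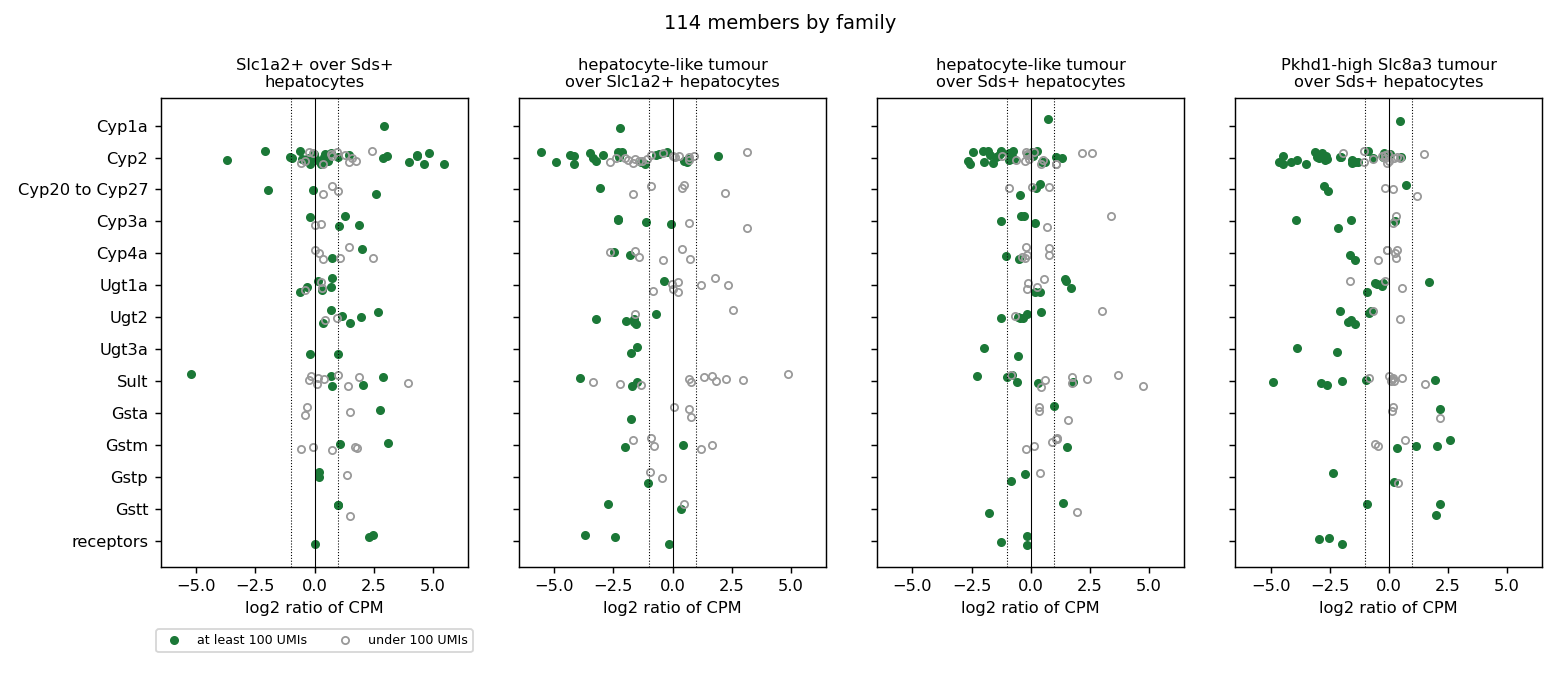
Log2 ratio of CPM for the 114 members, by family, in 4 comparisons of classes. Filled points have at least 100 UMIs in both classes together, open points fewer, and dotted lines mark 2-fold. Of the P450s of the Cyp2 family, 24 of 40 were at least 2-fold lower in hepatocyte-like tumour than in pericentral hepatocytes, against 7.73% of all genes. The Gsta, Gstm and Gstt families reach the right side in the Pkhd1-high panel and in the other panels set against periportal hepatocytes.

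The class of highest level was a hepatocyte class for 67 members, 61 of them with at least 20 UMIs there. It was the pericentral class for 52 members, the periportal class for 11 and the neither-gate class for 4. A tumour class was highest for 19 members, 10 of them with at least 20 UMIs. Another class was highest for 28, but only 7 of these reached 20 UMIs there. The same counts over all genes are not given here, so these numbers describe the members only. Cyp20a1, an orphan P450, had 189 CPM in stellate nuclei (338 UMIs) and at most 18.3 in a hepatocyte class, 10.4-fold more. Pericytes and fibroblasts followed with 92.6 and 69.5 CPM. Cyp26b1, which degrades retinoic acid, had 15.5 CPM in sinusoidal and 13.7 in other endothelium, and at most 0.679 in hepatocytes. Gsta4, which conjugates the lipid peroxidation product hydroxynonenal, had 17.4 CPM in stellate nuclei and 15.1 in free RNA. Sult1c2 was highest in ductal nuclei, with 41 UMIs over 34 nuclei.

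**Figure D5:**
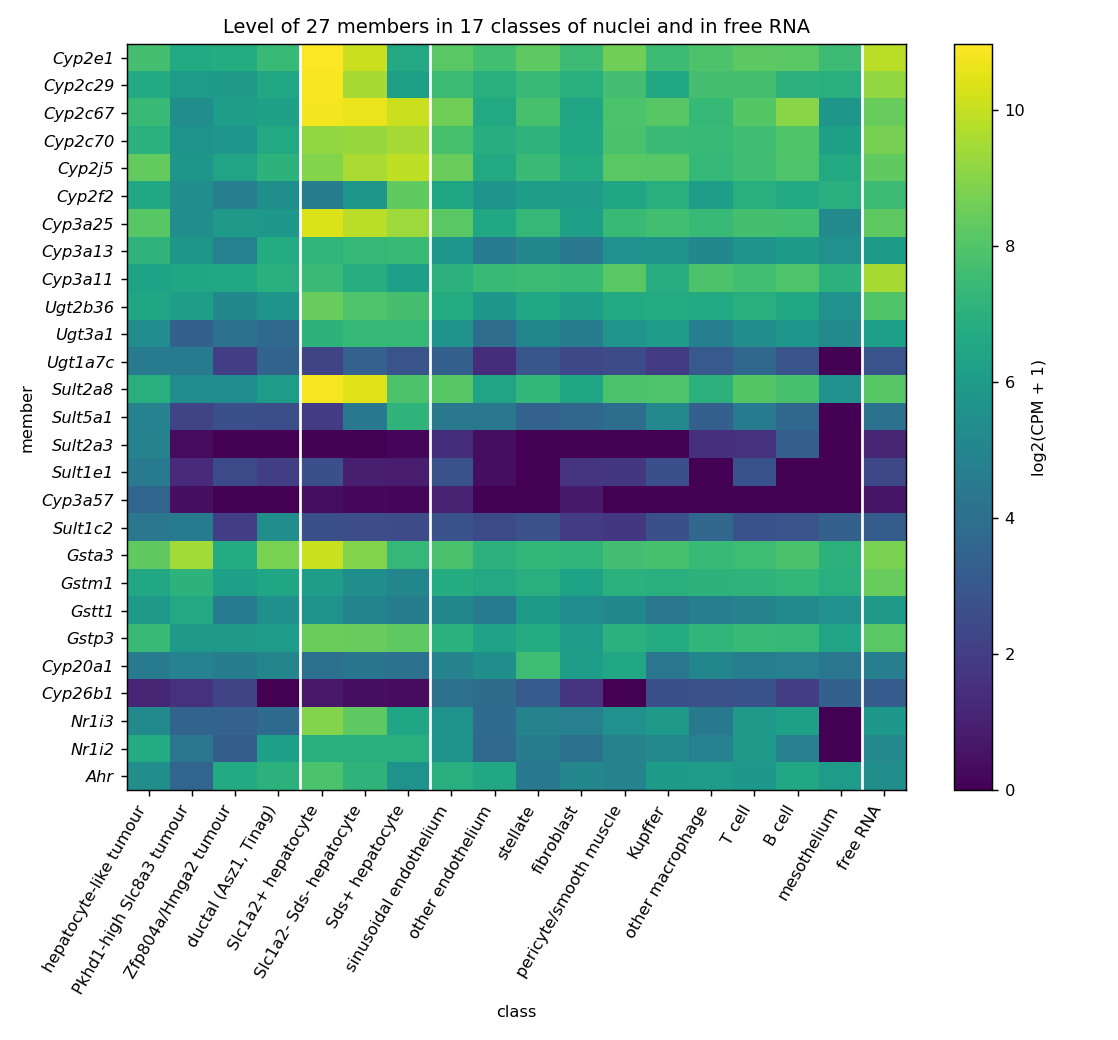
Level of 27 members in 17 classes of nuclei and in free RNA, as log2 of CPM plus 1, with tumour and ductal classes on the left, hepatocytes in the middle and other cells on the right. Cyp2e1 and Sult2a8 are brightest in pericentral hepatocytes, Gsta3 is also bright in the Pkhd1-high class (693 CPM), and Cyp20a1 in stellate nuclei (189 CPM).

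Free RNA carried several members at more than any class did. This held for 7 members highest in hepatocytes, 1 highest in a tumour class and 6 highest elsewhere. No share of all genes is given beside these counts, and they are not read as a result about the members. Cyp3a11, the main pregnane X receptor target among mouse Cyp3a genes, had 743 CPM in free RNA, against 177 in pericentral and 71.0 in periportal nuclei. Cyp1a2 had 111 CPM in free RNA and 72.7 in pericentral nuclei. Levels of such genes in classes with few UMIs, such as the 288 CPM of Cyp3a11 in pericytes, are not read as expression.

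Of 28 other genes of drug metabolism and transport, 12 were at least 2-fold higher and 0 lower in pericentral than in periportal nuclei, against 4.16% and 4.05% of all genes. Por, the reductase that feeds electrons to microsomal P450s, had 627 and 119 CPM, 5.29-fold higher (4.97 to 5.64). The uptake transporter Slco1b2 had 3685 and 587 CPM, and the flavin monooxygenase Fmo5 had 1217 and 359 CPM. Hepatocyte-like tumour nuclei were lower for 14 and higher for 3 of the 28 against pericentral nuclei (7.73% and 18.2% of all genes), and lower for 4 and higher for 5 against periportal ones (5.41% and 15%). Among those higher against periportal nuclei, Gclc, which makes the first intermediate of glutathione, had 511 and 175 CPM, and the efflux pump Abcb1a 18.5 and 1.48 CPM. The Pkhd1-high class was lower than periportal hepatocytes for 12 and higher for 4 (10.9% and 17.7% of all genes), and the Zfp804a/Hmga2 class lower for 15 and higher for 5 (13.3% and 19.5%). The counts of higher genes in the 3 comparisons with periportal nuclei are near these shares and are not read as a result about the list. Hnf4a, a master regulator of hepatocyte genes, had 352 CPM in hepatocyte-like tumour, 85.4 in the Pkhd1-high class and 48.7 in the Zfp804a/Hmga2 class, against 362 in periportal hepatocytes.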

How the data were processed

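The study profiled nuclear RNA of frozen mouse liver with the 10x Genomics 3′ assay, in 2 samples of 1 group. The deposited values are counts of UMIs per gene and barcode, filtered and unfiltered, made with Cell Ranger 5.0 on mm10 per the submitters' processing notes, and 5.0.0 per the file headers of the filtered matrix. The header of the unfiltered matrix, from which free RNA was taken, names version 4. No normalisation was applied to them by the authors as far as the file headers show. Barcodes carry no sample, so there is no replicate.

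Of 17169 barcodes, 16411 passed filters of at least 500 UMIs, 300 genes and at most 5% mitochondrial UMIs (median 2806 UMIs). Marker gates put 4981 in 1 class each. A further 843 met more than 1 gate and were left out, and 10587 met none. Gate minimums were set with the levels in view. Scrublet called 313 of 9632 barcodes with at least 2000 UMIs, and these were removed only as an alternative. Leiden clusters (24, scanpy 1.11.5, leidenalg 0.10.2, 2000 variable genes, 30 components, 15 neighbours, resolution 1) served as another. Of the Kupffer and B cell nuclei, most lay in a cluster with markers of several cell types.

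UMIs were summed per class and divided by the class total (CPM). Intervals are exact 95% Poisson intervals for levels, exact ratio intervals for folds and exact binomial intervals for shares (scipy 1.17.1, numpy 2.4.6, pandas 2.3.3). A ratio against 0 UMIs uses a floor of 3 counts. No test was run. The steps were checked on simulated data. Free RNA was the sum of 49929 uncalled barcodes with 500 to 849 UMIs. Shared sequence was counted as 90-base stretches of GENCODE M21 transcripts found in another gene. Promoters came from a RefSeq table.

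The members and lists were chosen with earlier results of these data known. The neither-gate class, comparisons with it and 2 alternatives were chosen after the data were seen. Named genes were the receptors, Cyp2c38, Cyp2c39, the 3 members of each family with the highest hepatocyte level, the 8 highest and lowest by zonation and 6 by tumour ratio, and members at 3 or more times their hepatocyte level in other cells, 70 in all. Others named were chosen after their values were seen.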

Additional observations from a re-analysis of the deposited data

How the results depend on the processing

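The 13 alternatives were run for the counts and medians of the 5 planned comparisons and for 34 members, not for the other members or the comparisons with the neither-gate class. Among these no called value changed sign. Of the counts and medians 185 values stayed close to the main one and 19 moved, and of the members' values 327 stayed and 115 moved. With 5 CPM added, the pericentral over periportal median was 0.36, 14 members were higher in hepatocyte-like tumour than in periportal nuclei, and the Zfp804a/Hmga2 class had 3 higher with a median of -0.28. With at least 20 UMIs in both classes, 10 members were higher in hepatocyte-like tumour than in pericentral nuclei, the Pkhd1-high median was -1.04, and the Zfp804a/Hmga2 class had 6 higher with a median of -1.24. With at least 100 UMIs, 26 members were higher in pericentral than in periportal nuclei. Hepatocyte-like tumour then had 1 higher and a median of -1.78 against pericentral nuclei, and 8 higher, 21 lower and -0.47 against periportal ones, where without the minimum 24 were higher and 22 lower. At that depth the Pkhd1-high median was -1.58, and the Zfp804a/Hmga2 class had 3 higher and -2.09. Centring moved the hepatocyte-like tumour median against periportal nuclei to -0.22. Whole clusters in place of gates gave 27 pericentral members and a median of 0.35. Minimum counts test fewer genes. The cause of the other shifts was not tested. No paired analysis was possible because no barcode can be tied to either sample, and for that reason neither sample could be left out. Classes of few nuclei and members of few UMIs limit what can be read.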

Other observations

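Cyp2b9 is expressed predominantly in females in mouse liver. Here it had 117 CPM in pericentral, 55.3 in neither-gate and 88.8 in periportal hepatocytes, and 14.4 in hepatocyte-like tumour nuclei. A UMI of 1 of 4 Y-linked genes was found in 91.5% to 99.4% of nuclei of the 7 hepatocyte, tumour and ductal classes. Of the nuclei with a Cyp2b9 UMI, 79 of 79 pericentral, 107 of 108 neither-gate and 410 of 413 periportal nuclei also had a Y-linked UMI. Cyp2b13, which lies in the same cluster of genes, had 12.9 CPM in pericentral, 1.99 in neither-gate and 1.60 in periportal nuclei. Cyp2s1 had 11.4 CPM in ductal nuclei from 11 UMIs, and 37.0 CPM in mesothelium from 4 UMIs.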
